A study of Rattus norvegicus with 24 samples.

Results

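The miR-130 and miR-301 family of the rat was represented by 8 mature miRNAs among the 728 miRNAs of the count tables. They were taken by name alone, as both arms (5p and 3p) of the hairpins miR-130a, miR-130b, miR-301a and miR-301b, so the rule itself uses no measured level; the family was picked for description with earlier results of these data known. Small RNA was sequenced from adult Sprague-Dawley rats, all male by the study's methods, killed 3 months after surgery, which was a lateral fluid-percussion injury, a model of traumatic brain injury (TBI) in which a fluid pulse strikes the exposed dura on one side, or a sham operation without the pulse. From 6 TBI rats and 6 sham rats, both the perilesional cortex, which borders the lesion, and the thalamus of the same side were sequenced, giving 24 libraries in the groups TBI cortex, sham cortex, TBI thalamus and sham thalamus. The TBI rats had been picked by the study for a rim of inflammation on magnetic resonance imaging, so they do not stand for all injured rats. The libraries were made from whole tissue, in which fewer cells of a type and less of a miRNA per cell cannot be told apart.

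A miRNA is cut from one side of a hairpin and guides silencing proteins to messenger RNAs that pair with its seed, bases 2 to 8 from the 5′ end. The 3p arms of the family share a seed, and members are known from other tissues as repressors of PPARG, as regulators of vessel growth in endothelial cells and, for miR-301a, as a repressor of an inhibitor of NF-κB. The 5p arms carry other seeds and are usually regarded as the passenger side of these hairpins, although either arm can be retained.

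The sequences show how alike the members are, which bears on how their reads can be told apart. A mature sequence was found for 7 of the 8 members among the RefSeq miRNAs of assembly GRCr8. The member without one was miR-301a-3p, so it could not be compared with miR-301b-3p. Capitals mark the seed.
rno-miR-130a-3p: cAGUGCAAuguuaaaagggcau
rno-miR-130b-3p: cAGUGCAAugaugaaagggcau
rno-miR-301b-3p: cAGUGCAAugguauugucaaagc
rno-miR-130b-5p: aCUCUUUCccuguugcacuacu
rno-miR-130a-5p: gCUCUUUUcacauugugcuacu
rno-miR-301a-5p: gCUCUGACuuuauugcacuac
rno-miR-301b-5p: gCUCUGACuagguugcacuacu
The printed 3p arms had the same seed, AGUGCAA. With positions counted from 1 at the 5′ end, miR-130a-3p and miR-130b-3p differed at 2 of 22 bases, U11A and A13G (the base of miR-130a-3p first). The 5p arms had 3 seeds, of which CUCUGAC was shared by miR-301a-5p and miR-301b-5p. Those 5p arms differed at 3 of 21 bases, U10A, U11G and A12G. How the authors' counting divided reads that match near-identical members is not given in the sources used here, so the split between miR-130a-3p and miR-130b-3p, and between the a and b forms of miR-301, is uncertain.

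In GRCr8, miR-130a-3p lies at chr3:90229240-90229261 on the minus strand, in no other annotated gene. The arm miR-301a-5p lies at chr10:72422622-72422642 on the plus strand, inside the gene models of Ska2 and Prr11. The hairpins of miR-301b and miR-130b lie 269 bases apart on the plus strand of chromosome 11, both inside the gene model 2610318N02Rikl. miR-130b-5p is at chr11:97384392-97384413 and miR-130b-3p at chr11:97384430-97384451. The miR-130b hairpin is shown because its 2 arms were so unequally represented below, with the 5p arm and then the 3p arm in capitals.
Mir130b hairpin: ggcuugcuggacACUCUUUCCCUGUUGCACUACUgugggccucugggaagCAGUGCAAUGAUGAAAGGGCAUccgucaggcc

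Depth ranged from 744564 to 4069284 miRNA reads in the 12 cortex libraries and from 523298 to 4139901 in the 12 thalamus libraries. Levels are given in counts per 1000000 miRNA reads (CPM) after TMM scaling, which corrects for composition. A single read was worth between 0.312 and 1.38 CPM in cortex and between 0.210 and 2.57 CPM in thalamus. Among marker miRNAs of cell types, all 3 oligodendrocyte markers were lower in cortex than in thalamus, in sham and in TBI rats alike. Of the neuronal markers miR-124-3p, miR-9a-5p and miR-128-3p, the latter pair were higher in cortex in sham rats, and miR-124-3p and miR-128-3p in TBI rats. Of the choroid plexus and ependyma markers, 2 of 4 were lower in cortex in both groups of rats, and 1 of 4 vessel markers was higher in cortex in sham rats. In TBI against sham cortex, 1 of 3 neuronal markers (miR-128-3p) was lower and 1 of 4 choroid plexus and ependyma markers (miR-211-5p) was higher, while 0 of 4 vessel, 0 of 2 red cell, 0 of 4 leukocyte and microglia and 0 of 3 oligodendrocyte markers passed the test of edgeR. None of the markers tested passed it in TBI against sham thalamus, where miR-223-3p of the leukocyte and microglia list was not tested. In the choroid plexus and ependyma list, miR-449a-5p was not tested in any comparison. The red cell list also named miR-486, which was not found under that name.

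The family was a minor part of the miRNAs of either region. Summed over all 8 members, it reached 96.5 ± 12.7 CPM in sham cortex, 98.7 ± 8.57 in TBI cortex, 132 ± 15.4 in sham thalamus and 126 ± 18.7 in TBI thalamus (SD, n = 6 each). The most abundant 3p arm, miR-130a-3p, ranked between 248 and 272 of 728 miRNAs by mean level, depending on the group. The 5p arm miR-301a-5p ranked between 269 and 290, miR-130b-5p between 287 and 337, and miR-301a-3p between 315 and 343. miR-130a-3p held on average 42.2% of the family's reads in sham cortex, 51.6% in TBI cortex, 31.3% in sham thalamus and 32.7% in TBI thalamus. Only these 4 members had enough reads for the tests in either region.

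The other 4 members were close to the limit of detection, with at most 8 reads in any library. miR-130a-5p had 9, 9, 6 and 7 reads in all over sham cortex, TBI cortex, sham thalamus and TBI thalamus. miR-301b-5p had 3, 2, 4 and 6 reads over the same groups. miR-301b-3p had 1 read in sham cortex, 6 in sham thalamus and 5 in TBI thalamus, and 0 reads in TBI cortex. There, 3 reads of the total would be 0.291 CPM without TMM scaling, and the exact Poisson 95% interval reached 0.358 CPM. miR-130b-3p had 2 reads in sham cortex, 5 in TBI cortex, 17 in sham thalamus and 18 in TBI thalamus. Pooled over 6 libraries, that was 0.162 unscaled CPM in sham cortex (exact Poisson 95% interval 0.0196 to 0.584) against 1.41 in sham thalamus (0.823 to 2.26). In TBI rats it was 0.486 in cortex (0.158 to 1.13) against 1.42 in thalamus (0.839 to 2.24). The intervals of cortex and thalamus did not meet in sham rats and overlapped in TBI rats, and they cover counting error only, not the spread between rats. They also leave out TMM scaling. Without it the median of all miRNAs, cortex minus thalamus, moved by -0.38 on the log2 scale in sham rats and by -0.048 in TBI rats. Reads of miR-130b-3p were seen in 2 of 6 sham cortex, 3 of 6 TBI cortex, 4 of 6 sham thalamus and 5 of 6 TBI thalamus libraries.

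**Figure D1:**
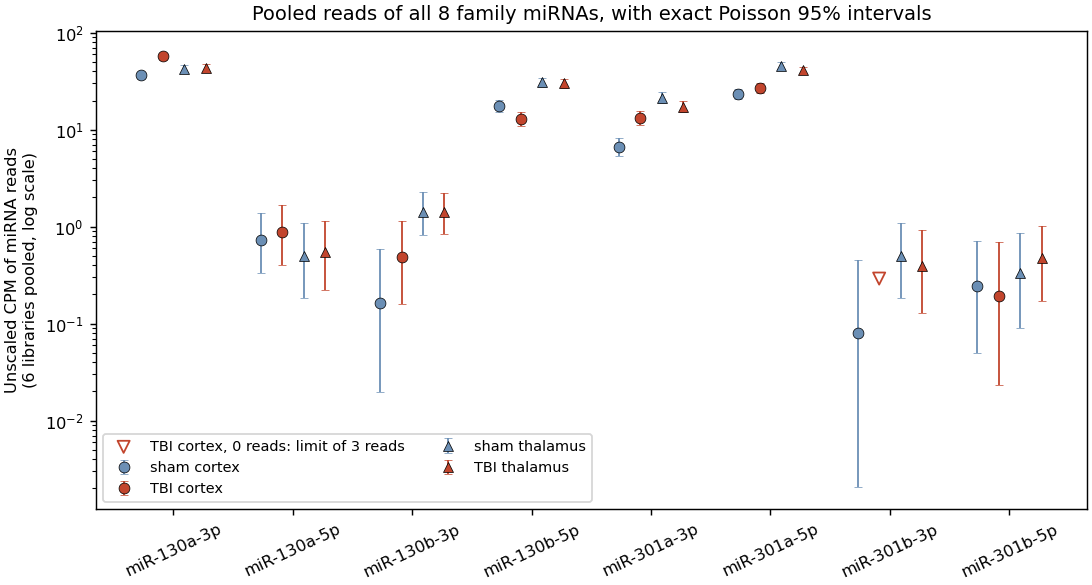
Reads of each of the 8 family miRNAs as unscaled CPM, on a log scale, pooled over the 6 libraries of each group (circles cortex, triangles thalamus, blue sham, red TBI). Bars are exact Poisson 95% intervals, which cover counting error only, and the open triangle is the limit that 3 reads would set where 0 were seen. The 4 tested members lay above 6 CPM in every group and the other 4 at or under 1.42.

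The first comparison asked which miRNAs differed between TBI and sham cortex at 3 months. In the family, miR-130b-5p was lower after injury and no other member passed the test. In sham cortex miR-130b-5p ran from 13.3 through a median of 18.7 to 23.3 CPM, and in TBI cortex from 9.52 through 12.2 to 13.5 CPM. The groups overlapped only through sham rat 55 at 13.3 CPM, which lay under TBI rats 22 and 56. Of the miRNAs tested, 2.70% had groups that did not overlap at all, and no tested member was among them. The means were 18.9 ± 3.51 and 11.8 ± 1.78 CPM (SD, n = 6 each), from 12 to 70 reads a library in sham and 10 to 41 in TBI. The difference was -0.70 on the log2 scale (SE 0.19, adjusted p = 0.0422, edgeR quasi-likelihood test with Benjamini-Hochberg adjustment), a level 0.616 times that in sham. It stood at rank 21 by p-value among 371 miRNAs tested, of which 21 were called, or 5.66% (2.70% lower and 2.96% higher), so it was the last miRNA to be called. Of the 4 members tested, 1 was called lower and 0 higher, and their median log2 fold change was 0.071 against 0.049 over all miRNAs tested.

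That call depended on single libraries. It was lost when any one of sham rats 26, 32, 34, 38 and 50 or TBI rats 24, 45, 52 and 63 was left out, with adjusted p from 0.0645 to 0.111 in edgeR, while the log2 fold change stayed between -0.83 and -0.65 over all 12 omissions. With DESeq2 it was -0.74 (adjusted p = 0.0370). With library-size scaling, which moved the median of all miRNAs by 0.21, it was -0.46 (adjusted p = 0.138). The neuronal markers summed to 293250 to 552970 CPM in sham cortex and 230818 to 310996 CPM in TBI cortex. Their members did not move alike, since TBI minus sham was -0.75 on the log2 scale for miR-128-3p (adjusted p = 0.0231 in edgeR), -0.27 for miR-9a-5p and 0.15 for miR-124-3p, neither of which was called, and their part in the result of miR-130b-5p was not tested.

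The 3p arms had higher means in TBI cortex, without passing the test. miR-130a-3p ran from 19.5 through a median of 43.5 to 54.3 CPM in sham cortex and from 36.4 through 51.4 to 62.7 CPM in TBI cortex. The ranges overlapped widely apart from sham rat 26, the lowest at 19.5 CPM. The difference was 0.32 on the log2 scale (SE 0.22, adjusted p = 0.361 in edgeR), and 0.10 without that rat. miR-301a-3p ran from 4.99 through 7.72 to 13.8 CPM in sham cortex and from 7.83 through 12.1 to 14.5 CPM in TBI cortex, on only 8 to 44 reads a library. Its difference of 0.54 (SE 0.27, adjusted p = 0.248 in edgeR) was the most positive of the members. The 5p arm miR-301a-5p was at 26.7 ± 4.07 CPM in sham and 23.3 ± 5.27 CPM in TBI cortex (SD, n = 6 each), with a difference of -0.18 (SE 0.19, adjusted p = 0.611 in edgeR). Its direction turned to 0.058 with library-size scaling.

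**Figure D2:**
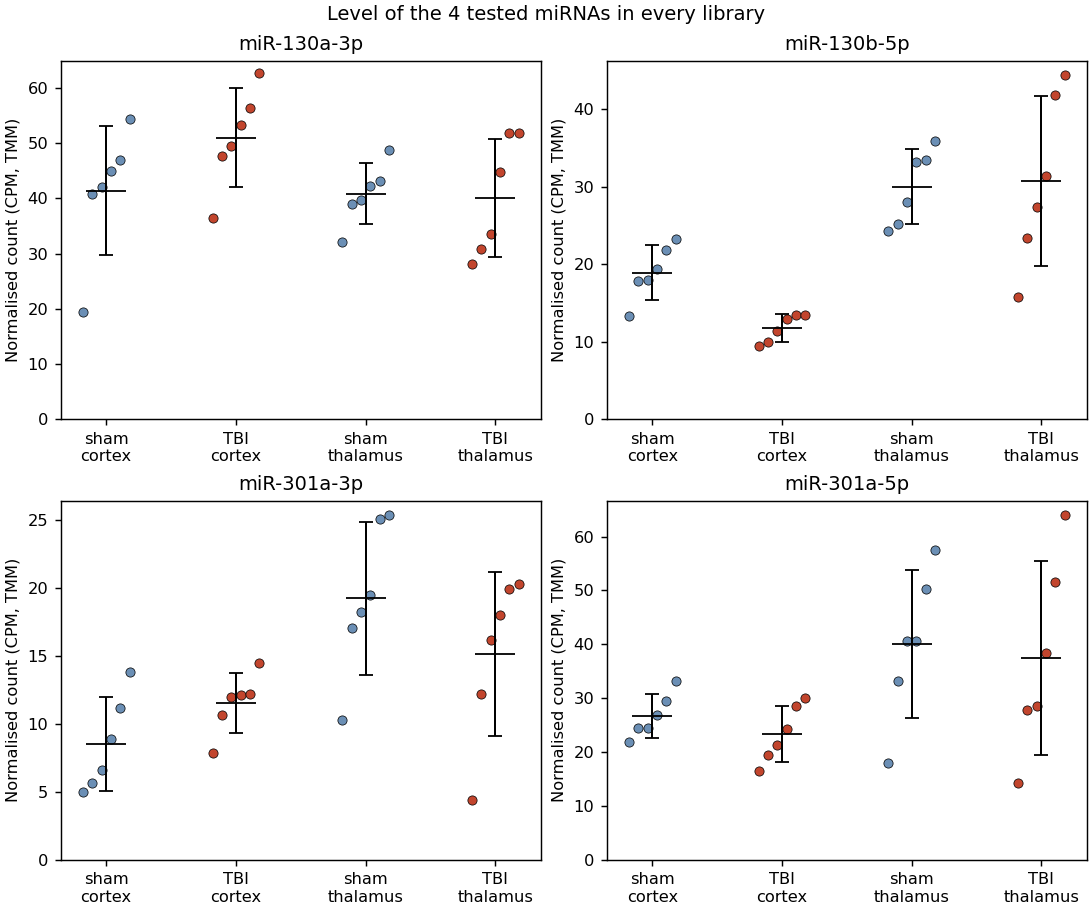
Level of the 4 tested members in every library (points, one per rat; blue sham, red TBI), in CPM after TMM scaling within each region, with the group mean (wide bar) and SD (error bar), n = 6. In cortex the TBI points of miR-130b-5p lie between 9.52 and 13.5 CPM and the sham points between 13.3 and 23.3, whereas in thalamus the groups overlap for every member.

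No member was called in TBI against sham thalamus, where 0.513% of the miRNAs tested were called, and 0 of the 4 were under an unadjusted p of 0.05 in edgeR. With DESeq2, too, 0 of the 4 were called. miR-130b-5p ran from 24.2 through a median of 30.6 to 35.9 CPM in sham thalamus and from 15.8 through 29.3 to 44.4 CPM in TBI thalamus. The TBI rats thus lay on both sides of the sham range, with rat 52 lowest and rat 22 highest. TBI minus sham was 0.025 on the log2 scale (SE 0.25, adjusted p = 0.986 in edgeR). miR-130a-3p had nearly equal means of 40.8 ± 5.51 CPM in sham and 40.1 ± 10.7 CPM in TBI thalamus (SD, n = 6 each), a difference of -5.88e-05 on the log2 scale (SE 0.21, adjusted p = 1.00 in edgeR). miR-301a-3p ran from 10.3 through 18.8 to 25.3 CPM in sham and from 4.40 through 17.1 to 20.3 CPM in TBI thalamus. The lowest TBI value, in rat 56, came from 2 reads. The difference was -0.32 (SE 0.28, adjusted p = 0.815 in edgeR). miR-301a-5p was at 40.0 ± 13.7 CPM in sham and 37.4 ± 18.0 CPM in TBI thalamus, with a difference of -0.11 (SE 0.34, adjusted p = 0.969 in edgeR). The direction of miR-130a-3p, miR-130b-5p and miR-301a-5p turned when single rats were left out, and that of miR-130a-3p and miR-130b-5p also with other scalings.

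Whether the effect of injury differed between the regions was tested by the interaction of injury and region over all 24 libraries, without pairing the regions of a rat. For miR-130b-5p the effect was more negative in cortex by 0.74 on the log2 scale, with an estimate of -0.74 (SE 0.30, adjusted p = 1.00 in edgeR). By unadjusted p it ranked 4 among 407 miRNAs. For miR-301a-3p the estimate was 0.80 (SE 0.40, adjusted p = 1.00 in edgeR). For miR-130a-3p it was 0.25 (SE 0.31) and for miR-301a-5p -0.084 (SE 0.39). edgeR called 0.00% of the miRNAs for this difference, 3.93% were under an unadjusted p of 0.05, miR-130b-5p among them, and DESeq2 called 0 as well. A difference of the injury effect between cortex and thalamus was therefore not shown for any member, miR-130b-5p included.

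Cortex and thalamus of the same group were then compared, with levels scaled over all 24 libraries. The main test took the libraries as unpaired, although each rat gave both regions. In sham rats miR-301a-3p was lower in cortex, at 9.63 ± 4.04 CPM (5.48 to 15.6), than in thalamus, at 17.3 ± 4.79 CPM (8.95 to 22.2; SD, n = 6 each). The ranges overlapped, and cortex was below thalamus in 5 of 6 rats. The log2 fold change was -1.05 (SE 0.28, adjusted p = 0.0114 in edgeR), a level 0.482 times that of thalamus. In this comparison 24.3% of miRNAs tested were called (13.3% lower and 10.9% higher in cortex), and 1 of the 4 tested members was among them. The call was lost without sham rat 26 (adjusted p = 0.0514), 32 (0.0524) or 38 (0.0756, all in edgeR). The other members did not pass: on the log2 scale, cortex minus thalamus was 0.28 for miR-130a-3p (SE 0.22), -0.37 for miR-130b-5p (SE 0.19) and -0.38 for miR-301a-5p (SE 0.23). With library-size scaling, which moved the median of all miRNAs by -0.38, miR-130a-3p turned to -0.083 and both 5p arms passed, at -0.77 for miR-130b-5p (adjusted p = 0.00518) and -0.79 for miR-301a-5p (adjusted p = 0.0285 in edgeR).

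Between the regions of TBI rats, miR-130a-3p was called only with pairing by rat, as given below. The member called by the unpaired test was miR-130b-5p. It was at 13.0 ± 2.50 CPM in cortex (9.93 to 16.5) and at 27.5 ± 9.21 CPM in thalamus (14.7 to 38.5; SD, n = 6 each). Cortex was below thalamus in 6 of 6 rats, and the ranges met only through the lowest thalamus value, that of rat 52. The log2 fold change was -1.19 (SE 0.25, adjusted p = 0.00340 in edgeR), a level 0.440 times that of thalamus. It passed under every omission of 1 rat, from -1.24 to -1.01, and under each of the 5 other settings in which it could be fitted. Of all miRNAs tested 21.0% were called here (13.2% lower and 7.77% higher in cortex), against 1 of 4 members.

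miR-130a-3p pointed the other way, with 55.6 ± 9.58 CPM in cortex (38.8 to 67.4) and 36.5 ± 10.7 CPM in thalamus (24.3 to 48.4; SD, n = 6 each) of TBI rats. It was higher in cortex in 6 of 6 rats, by 0.47 on the log2 scale (SE 0.23, adjusted p = 0.178 in edgeR). When each rat's regions were paired by a rat block, the value was 0.52 and passed (adjusted p = 0.0405 in edgeR), in a fit that called 150 miRNAs against 81 without the block. miR-301a-3p was at 12.7 ± 3.04 CPM in cortex and 13.7 ± 5.55 CPM in thalamus of TBI rats, a log2 difference of -0.30 (SE 0.29, adjusted p = 0.504 in edgeR). miR-301a-5p had -0.51 (SE 0.31, adjusted p = 0.263 in edgeR). The oligodendrocyte markers summed to 3482 to 4987 CPM in cortex and 11082 to 14290 CPM in thalamus of TBI rats. In sham rats they summed to 3584 to 4320 CPM in cortex and 10135 to 17583 CPM in thalamus. There cortex minus thalamus for miR-130b-5p was -0.37 on the log2 scale (SE 0.19), which did not pass. The interaction above, which also compares the region difference of sham and TBI rats, did not pass for miR-130b-5p. In TBI rats 2 of 4 choroid plexus and ependyma markers were also lower in cortex, and 2 of 3 neuronal markers were higher. The part of these markers in the lower level of miR-130b-5p was not tested.

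**Figure D3:**
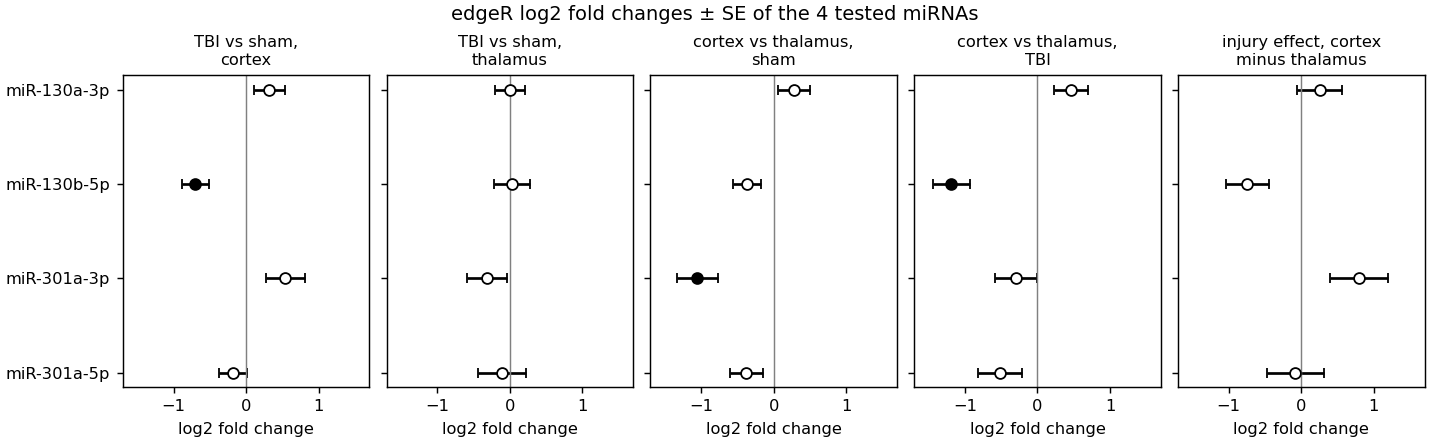
edgeR log2 fold changes (points) and their SE (bars) of the 4 tested members in the 5 comparisons; positive values are higher in TBI, higher in cortex or, in the last panel, a more positive injury effect in cortex. Filled points passed an adjusted p of 0.05: miR-130b-5p at -0.70 in cortex and -1.19 between the regions of TBI rats, and miR-301a-3p at -1.05 between the regions of sham rats.

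Each of the 4 groups thus gave an order of levels for miR-130b-5p, from 13.0 CPM in TBI cortex through 21.2 ± 3.61 in sham cortex to 27.0 ± 3.92 in sham thalamus and 27.5 CPM in TBI thalamus on the common scale. These group ranges overlapped between neighbours, with 9.93 to 16.5 CPM in TBI cortex, 14.8 to 24.7 in sham cortex, 21.5 to 31.3 in sham thalamus and 14.7 to 38.5 in TBI thalamus. Of the neighbours, TBI and sham cortex passed the test within cortex, a call lost in 9 of 12 omissions of a rat and in the fit of all 24 libraries (-0.73, adjusted p = 0.137 in edgeR). Sham cortex and sham thalamus did not pass (adjusted p = 0.173 in edgeR), nor did the thalamus groups. For miR-301a-3p the order ran from sham cortex at 9.63 CPM through TBI cortex at 12.7 and TBI thalamus at 13.7 to sham thalamus at 17.3 CPM. No pair of neighbours in that order passed its test, and the ends of the order, sham cortex and sham thalamus, did.

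The arm that held most reads differed between hairpins. Of the reads of miR-130a, 98.0% in sham cortex, 98.5% in TBI cortex, 98.8% in sham thalamus and 98.7% in TBI thalamus belonged to the 3p arm. For miR-130b the 3p arm held 0.909% of the pooled reads in sham cortex (exact binomial 95% interval 0.110 to 3.25%), 3.60% in TBI cortex (1.18 to 8.19%), 4.39% in sham thalamus (2.58 to 6.94%) and 4.49% in TBI thalamus (2.68 to 7.00%). Most reads counted for this hairpin thus belonged to the arm with the seed CUCUUUC. The shares rest on 2 to 18 reads counted as miR-130b-3p in a group, against 449 to 588 counted as the near-identical miR-130a-3p, so they carry the uncertainty of that split. For miR-301a the share of the 3p arm was between these, at 23.8 ± 7.24% in sham cortex, 33.3 ± 2.70% in TBI cortex, 33.1 ± 5.40% in sham thalamus and 30.8 ± 16.0% in TBI thalamus (SD over libraries, n = 6 each). In sham cortex it ran from 15.7 to 33.8% and in TBI cortex from 29.9 to 38.2%, so the groups overlapped. In TBI thalamus the libraries spread from 13.3 to 55.9%. The hairpin of miR-301b had between 2 and 11 reads a group, too few for a share. These are shares of the sequenced reads, and no test was made on them.

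**Figure D4:**
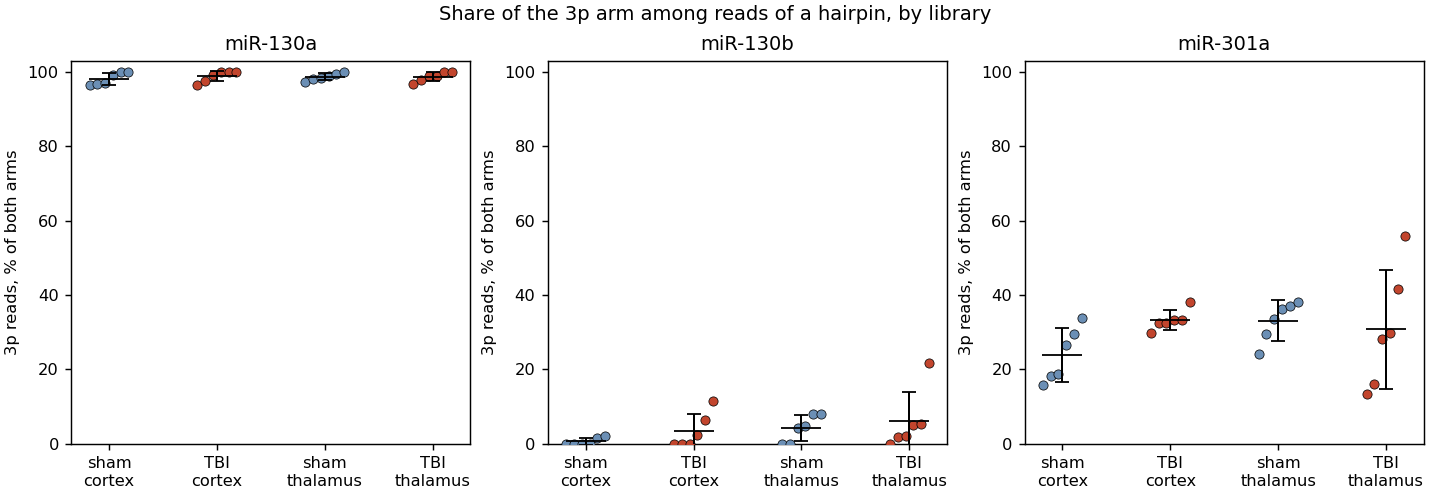
Share of the 3p arm among the reads of both arms of a hairpin in every library (points; blue sham, red TBI), with mean and SD, n = 6. It lies above 96% for miR-130a, under 22% for miR-130b and between 13.3 and 55.9% for miR-301a.

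How members varied together among rats was described within each region after subtracting group means from log2(CPM + 1), over 12 rats. In cortex miR-130a-3p and miR-130b-5p were inversely related, with Pearson's r = -0.73 (permutation p = 0.0228, adjusted p = 0.199 over 12 relations) and Spearman's rho = -0.81 (permutation p = 0.00209, adjusted p = 0.0251). Without the 2 rats farthest from the median of miR-130a-3p, r was -0.81. It was -0.75 within the 6 sham rats and -0.73 within the 6 TBI rats. In thalamus r was -0.70 (permutation p = 0.0471, adjusted p = 0.199) and rho -0.57 (permutation p = 0.120, adjusted p = 0.428), and r was -0.66 without the 2 farthest rats. There r was -0.88 within TBI rats and 0.12 within sham rats. With library-size scaling r was -0.41 in cortex and -0.72 in thalamus, neither of which passed the adjustment (permutation p, adjusted, 0.311 and 0.194). Spearman's rho was not computed with that scaling, so whether its result in cortex depends on the scaling was not tested. Of the 12 relations, 0 passed the adjustment by r and 1 by rho.

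**Figure D5:**
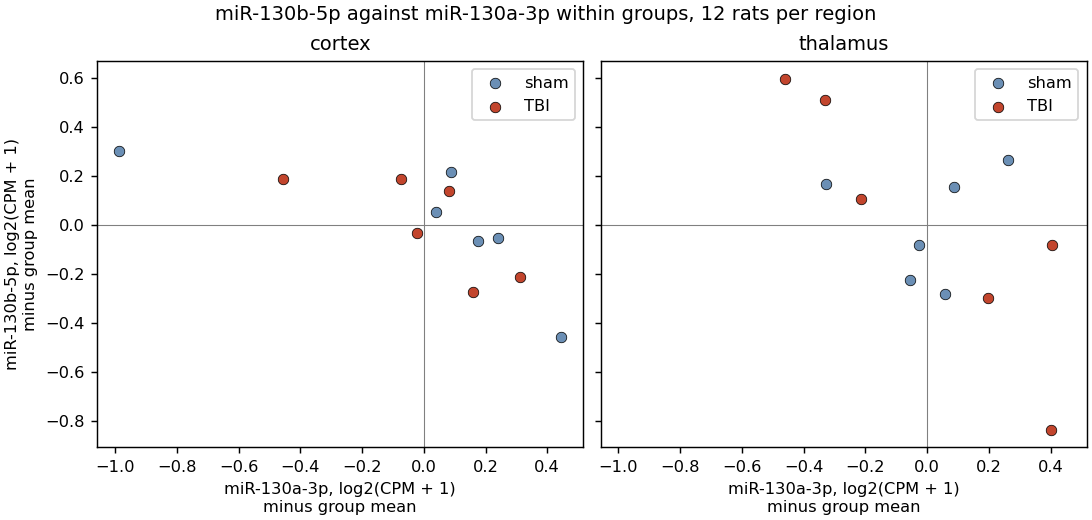
miR-130b-5p against miR-130a-3p in cortex and thalamus, each as log2(CPM + 1) minus the mean of its group, 1 point per rat (blue sham, red TBI; n = 12 per region). r is -0.73 in cortex, where both groups slope down, and -0.70 in thalamus, where the TBI rats slope down and the sham rats do not.

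Over the 24 libraries, with group means subtracted, the miRNAs most like each tested member among 330 candidates were miR-28-3p (r = 0.74) and miR-503-5p (r = 0.67) for miR-130a-3p. They were miR-532-5p (r = 0.93) and miR-344b-2-3p (r = 0.88) for miR-130b-5p. For miR-301a-3p they were miR-496-3p (r = 0.81) and miR-154-5p (r = 0.77), and for miR-301a-5p let-7f-2-3p (r = 0.87) and miR-30e-5p (r = 0.85). These values describe the 24 libraries, which come from 12 rats and share scaling factors. Against log2 depth, levels as log2(CPM + 1) minus group means had r = 0.0067 for miR-130a-3p, -0.080 for miR-130b-5p, 0.31 for miR-301a-3p and 0.40 for miR-301a-5p.

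A mature sequence was available for 655 of the 728 miRNAs of the tables, and among these, 3 outside the family carried AGUGCA within bases 1 to 8. Of them, miR-148b-3p and miR-152-3p were tested and miR-291b had 0 reads. Their core is shifted by 1 base against the family, as the capitals at bases 2 to 8 show.
rno-miR-148b-3p: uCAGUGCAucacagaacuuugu
rno-miR-152-3p: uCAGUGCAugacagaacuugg
Both were far more abundant than the family. miR-148b-3p was at 1358 ± 115 CPM in sham cortex and 1280 ± 145 CPM in TBI cortex, and miR-152-3p at 380 ± 26.8 and 483 ± 146 CPM (SD, n = 6 each). Neither was called between TBI and sham, with log2 fold changes in cortex of -0.085 (SE 0.12) and 0.34 (SE 0.17). Between cortex and thalamus of sham rats miR-152-3p was higher in cortex by 0.92 on the log2 scale (SE 0.16, adjusted p = 0.000313 in edgeR). In TBI rats its difference was 0.57 (SE 0.29, adjusted p = 0.186 in edgeR), which did not pass. For miR-148b-3p cortex minus thalamus was 0.24 in sham rats (SE 0.15) and 0.11 in TBI rats (SE 0.16), neither of which was called.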

How the data were processed

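Small RNA libraries were sequenced on an Illumina NextSeq 500 system. Per the study's methods, adapters were trimmed, reads were checked with FastQC, mapped to the rat build RGSC3.4 and named from miRBase release 20; the aligner and counting rules are not given in the sources used here. The authors deposited raw counts of reads per miRNA for each region, with tRNA features beside them, and these counts were used as deposited. The tables of corrected counts were not used. The miRNA counts of each comparison were filtered with filterByExpr, scaled by TMM and tested with the quasi-likelihood test of edgeR 4.0.16 in R 4.3.3, two-sided, with Benjamini-Hochberg adjustment over all miRNAs tested and a threshold of 0.05. The fits were checked on simulated counts. Group and rat number came from the sample titles, so the replicate is the rat. For TBI against sham within a region, p-values measure the spread between rats. The main tests between regions and of the interaction took the libraries as unpaired, so their p-values do not measure the spread of differences within rats. DESeq2 1.42.0, other scalings and filters, omission of each rat and a rat block were alternatives. Intervals and floors cover counting error only.

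Each rat gave both regions. The same rat's deviations from the group means in cortex and thalamus had a median correlation of 0.45 over 12 rats (-0.28 to 0.67). It was above 0.1 in 8 of the 12 rats. Between different rats of the same injury group the median was -0.06. The rat block pairs the regions by rat number. No libraries of a group agreed within sampling noise. Members were every miRNA whose name holds 130a, 130b, 301a or 301b with an arm. Other miRNAs were named as carriers of AGUGCA near the 5′ end, as the 2 most correlated with each tested member among those with at least 10 CPM in both regions, or from marker lists of vessels, red cells, leukocytes and microglia, oligodendrocytes, choroid plexus and ependyma, and neurons. Members, lists and tests were chosen with earlier results of these data known. Relations between members used 100000 permutations within groups.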

Additional observations from a re-analysis of the deposited data

How the results depend on the processing

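The tested members had 2 to 199 reads a library, and the other 4, with at most 8, were not tested. The direction of every called member held under all settings and omissions run, but the call of miR-130b-5p in cortex often did not. It passed with DESeq2 and with tRNA features included, and not with library-size scaling (-0.46), scaling to the study's 4 reference miRNAs (-0.69), no filter (-0.71) or all 24 libraries in 1 fit (-0.73); with a mean of at least 50 counts it was not tested. Leaving out single rats gave -0.83 to -0.65. miR-301a-3p in sham rats missed the threshold with the reference miRNAs (-0.96), and gave -1.24 to -0.89 without single rats. The causes were not tested.

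The number of miRNAs called in cortex, 21, became 38 with DESeq2, 39 with library size (36 higher and 3 lower, against 11 and 10), 1 with the reference miRNAs and 5 in the joint fit, and ran from 4 (without sham rat 38) to 30 without single rats. In thalamus 2 became 0 with the reference miRNAs, 1 with a mean of at least 50 counts and 5 in the joint fit, and 0 to 2 without single rats. Between regions 91 in sham rats became 147 with library size (22 higher and 125 lower, against 41 and 50) and 63 to 128 without single rats, and 81 in TBI rats ran from 58 to 87. For the interaction it was 0 throughout.

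Pairing the regions with the rat as replicate block called 150 miRNAs in TBI rats, 81 in sham rats and 0 for the interaction. It brought miR-130a-3p in TBI rats past the threshold (0.52, adjusted p = 0.0405 in edgeR) and changed no other member's call.

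Directions of differences that were not called turned as follows. miR-301a-5p in cortex was 0.058 with library size. In thalamus, miR-130a-3p was 0.066 with DESeq2, 0.023 with library size, 0.036 without a filter, 0.024 with a mean of at least 50 counts and 0.0081 in the joint fit. There miR-130b-5p was -0.00480 with library size and -0.053 with the reference miRNAs. miR-130a-3p between regions in sham rats was -0.083 with library size, and the interaction of miR-301a-5p was 0.22 with library size and 0.054 with the reference miRNAs. Without single rats, the thalamus values ran from -0.054 to 0.18 for miR-130a-3p, -0.040 to 0.19 for miR-130b-5p and -0.25 to 0.084 for miR-301a-5p, and the interaction of miR-301a-5p from -0.22 to 0.019. With library-size scaling, chosen after seeing the data, the cortex correlation of miR-130a-3p with miR-301a-5p was 0.23, that of miR-130b-5p with miR-301a-3p 0.26, and that of miR-301a-3p with miR-301a-5p 0.67 (permutation p, adjusted, 0.0330).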
